A study of Mus musculus with 17 samples.

Results

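Genes for splicing factors and heterogeneous nuclear ribonucleoproteins (hnRNPs) were followed in whole blood of mice that had received X-rays 24 h earlier. Earlier results of these data were known when these families were picked. Within them every gene was taken by symbol. The symbol had to begin with Hnrnp or be Srsf, Prpf, Sf3a or Sf3b followed by a number. The platform annotation also had to give the array probes to that gene only. The rule took 50 of the 18193 genes on the array: 10 Srsf, 19 Hnrnp, 12 Prpf, 3 Sf3a and 6 Sf3b genes. Each gene was read through its probe set (the group of short probes that report 1 transcript) with the highest mean over all 17 arrays. With that probe set 49 of the 50 were bright enough to be tested, among 12696 genes in all. The remaining gene, Srsf12, had a mean log2 level of 1.73 in control mice and 1.61 at 3.0 Gy, and was not tested.

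The animals were 17 female C57BL/6JJcl mice, an inbred laboratory strain, aged 8 weeks. Of these, 5 control mice received 0 Gy, and 4 mice each received 0.5, 1.0 or 3.0 Gy of X-rays over the whole body. The labels name no transgene, deletion or further agent in any group, and all blood was taken 24 h after exposure. One array was run per mouse, the labels call the mice of a group biological replicates, and levels are the log2 values the authors deposited, on which a difference of 1 is a 2-fold change. Whole blood mixes many cell types, so fewer cells of a type and less RNA per cell cannot be told apart in these values.

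Splicing removes introns from a newly made transcript and joins its exons. The spliceosome, a large machine of small nuclear RNAs and proteins, carries it out: the Sf3a and Sf3b proteins belong to the U2 particle, which recognises the branch point of the intron, and most Prpf proteins belong to the U4/U6.U5 particle, to the catalytic core or to its helpers. The Srsf genes code for SR proteins, which bind exons and mostly favour their inclusion, while hnRNPs coat the transcript and often oppose them, so that the balance of both families shapes which exons a cell keeps. In blood this machinery is at work in nucleated cells such as lymphocytes, monocytes and immature cells, whereas mature red cells and platelets have no nucleus.

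At 3.0 Gy most of these genes fell. Of the 49 tested, 41 were lower than in control mice and 1, Srsf2, was higher by limma's moderated test at an adjusted p under 0.05, while 29.2% of all genes tested were called lower and 20% higher. The median log2 change of the 49 genes was -0.91, against 0.04 over all genes tested. On the same arrays the mean level of 14 B and T cell markers was 5.62 at 3.0 Gy and 7.62 in control mice, and its part in the fall was not tested. The falls ran from 1.30-fold for Sf3a1 to 4.78-fold for Hnrnpr. At least 2-fold falls were called for 22 of the 49 genes (11.1% of all genes tested). At least 4-fold falls were called for 4, Hnrnpr, Hnrnph1, Prpf19 and Prpf4b (1.54% of all genes tested). The calls of Hnrnpr and Prpf19 depended on the choice of probe set, as given below.

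The 2 lower doses gave few calls. At 0.5 Gy limma called 0 of the 49 genes higher and 2 lower, Hnrnpab and Srsf5, with 5.24% of all genes tested called higher and 5% lower. Without adjustment, 9 of the 49 had p under 0.05 by limma at 0.5 Gy, as did 2776 of all 12696 genes tested. Limma with a trended, robust spread also called 0 higher and 2 lower (5.16% and 4.69% of all genes tested). At 1.0 Gy 1 gene, Hnrnpu, was higher and 4 were lower, Srsf5, Hnrnpab, Sf3b5 and Sf3b6, where 8.8% of all genes tested were called higher and 8.49% lower. The median log2 changes of the 49 genes were -0.07 at 0.5 Gy and -0.10 at 1.0 Gy. In the plot of changes by dose, most genes therefore sit near 0 at both lower doses and far to the left at 3.0 Gy.

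**Figure D1:**
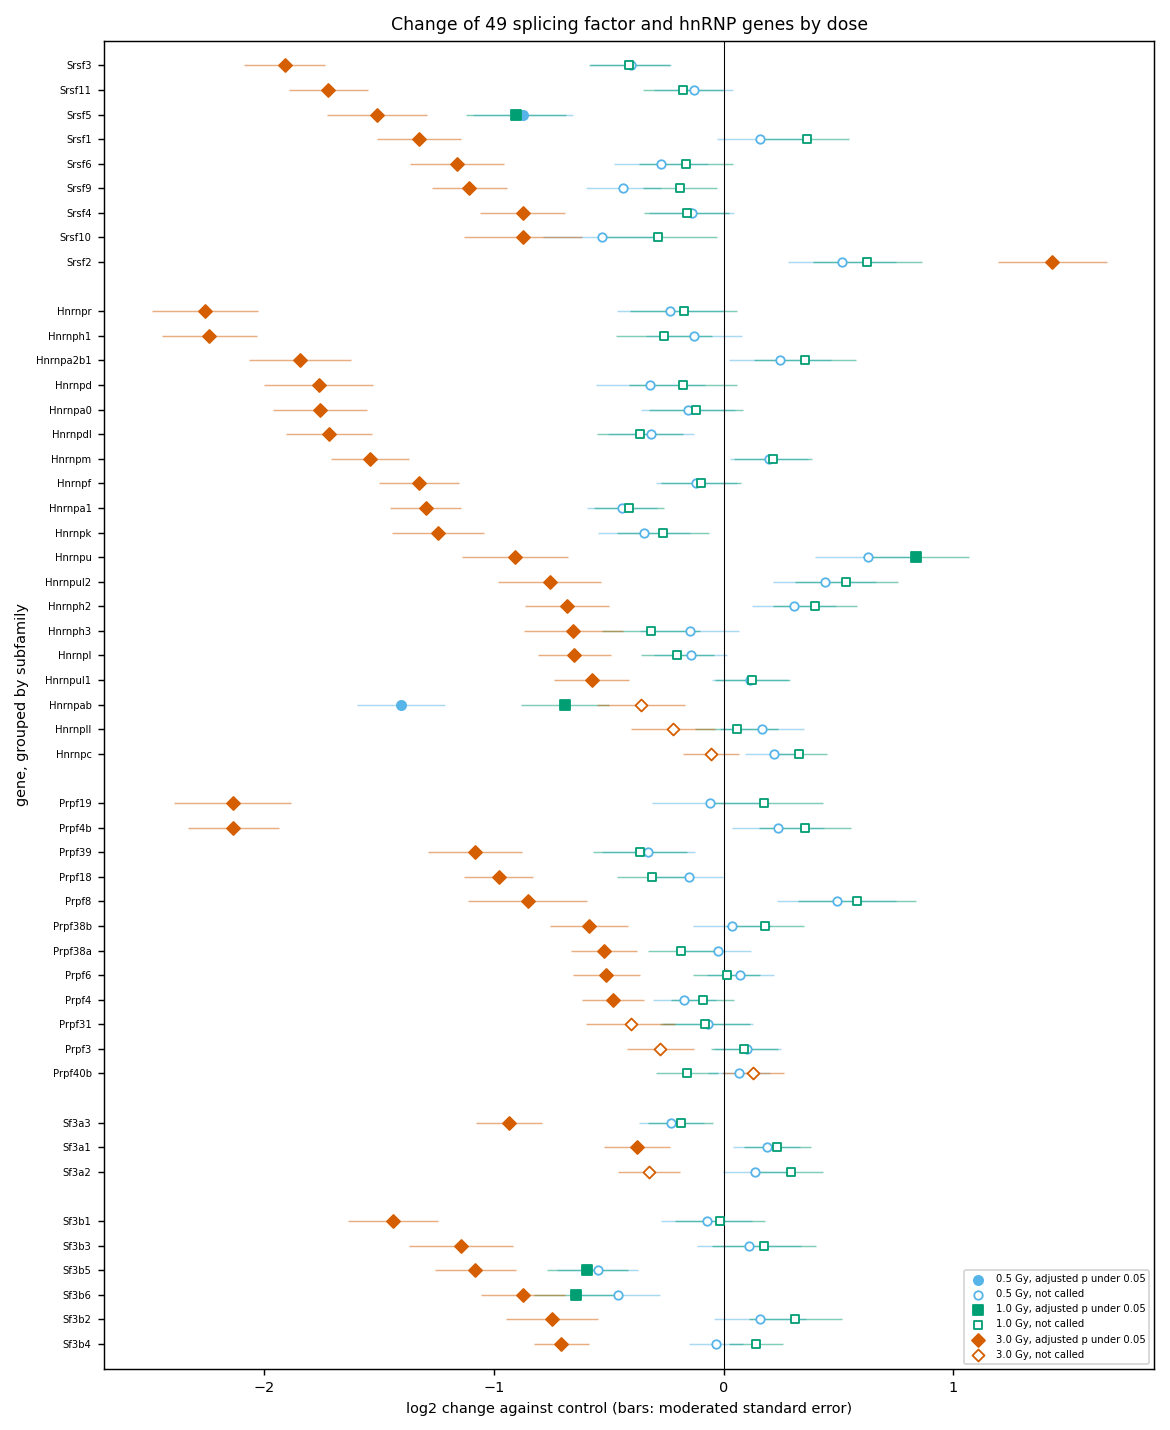
Log2 change against control (x axis) of the 49 tested genes (y axis, grouped by subfamily) at 0.5, 1.0 and 3.0 Gy, with limma's moderated standard errors as bars and filled symbols for an adjusted p under 0.05. At 3.0 Gy 41 genes are called lower and Srsf2 is called higher, while at 0.5 and 1.0 Gy most symbols lie close to 0 and are open.

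**Figure D2:**
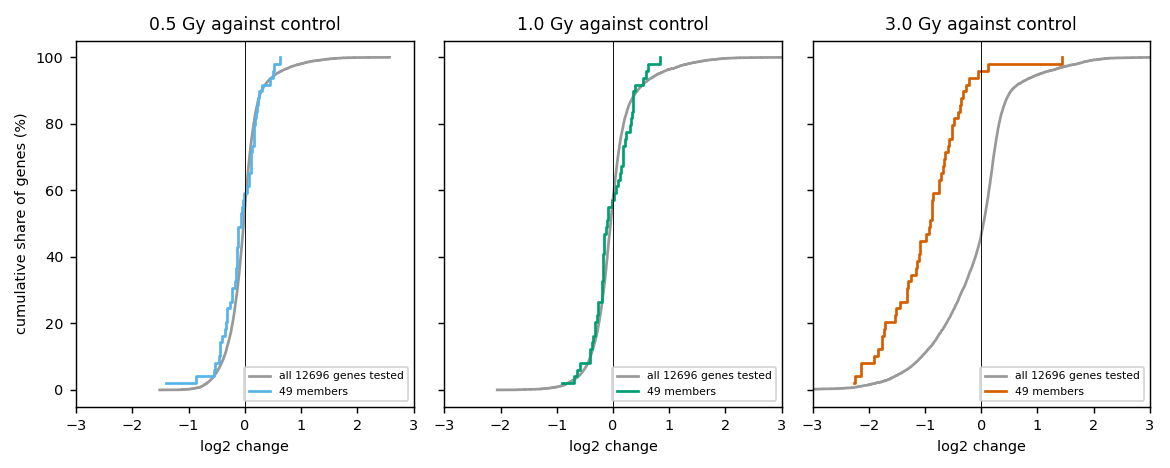
Cumulative share of genes (y axis, percent) by log2 change against control (x axis, shown from -3 to 3), for the 49 splicing factor and hnRNP genes and for all 12696 genes tested, 1 panel a dose. The curves run close together at 0.5 and 1.0 Gy, and at 3.0 Gy the 49 genes lie to the left, with a median of -0.91 against 0.04.

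The fall at 3.0 Gy was spread over all 5 subfamilies. It was called for 8 of 9 Srsf, 16 of 19 Hnrnp, 9 of 12 Prpf, 2 of 3 Sf3a and 6 of 6 Sf3b genes. Their median log2 changes were -1.16, -1.24, -0.55, -0.38 and -0.98 in that order. Differences between subfamilies were not tested. For 31 of the 49 genes every 3.0 Gy array lay below every control array (22.9% of all genes tested), for Srsf2 every one lay above (14.2%), and for 26 it lay below each of the 13 other arrays (13.4% of all genes tested).

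Stretches just upstream of the start sites are shown for a gene of each subfamily and for Srsf2, the gene that rose. In each subfamily this is the gene with the smallest p for a change at any dose, among those with a single promoter entry. The sequences are the 250 bases before the start on the gene's own strand, 5′ to 3′, from RefSeq. Capitals mark matches on either strand to the letters GGGCGG known from SP factors, to CCGGAA known from ETS factors, and to CCAAT of the box so named. They also mark CATGCGC known from the factor NRF1, CACGTG known as an E-box, and GATGGCG known from the factor YY1. Neighbouring matches may overlap.
Srsf3 (GRCm38.p6, chr17:29032410-29032659, strand +): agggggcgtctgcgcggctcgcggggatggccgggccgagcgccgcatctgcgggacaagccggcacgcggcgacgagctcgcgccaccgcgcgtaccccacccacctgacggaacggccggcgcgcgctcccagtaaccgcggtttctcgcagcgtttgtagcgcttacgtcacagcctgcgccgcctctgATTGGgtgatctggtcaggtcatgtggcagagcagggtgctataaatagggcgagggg
Hnrnpm (GRCm38.p6, chr17:33685459-33685708, strand -): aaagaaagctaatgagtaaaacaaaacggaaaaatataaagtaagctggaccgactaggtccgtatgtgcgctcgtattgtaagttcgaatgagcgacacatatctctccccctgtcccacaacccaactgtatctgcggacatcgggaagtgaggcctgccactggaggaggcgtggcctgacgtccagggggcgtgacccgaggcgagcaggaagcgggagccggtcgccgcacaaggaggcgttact
Prpf4b (GRCm38.p6, chr13:34875279-34875528, strand +): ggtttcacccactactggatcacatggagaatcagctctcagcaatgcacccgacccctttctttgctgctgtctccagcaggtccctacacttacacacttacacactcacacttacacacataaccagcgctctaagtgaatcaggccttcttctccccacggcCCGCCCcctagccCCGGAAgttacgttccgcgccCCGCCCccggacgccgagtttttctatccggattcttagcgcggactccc
Sf3a3 (GRCm38.p6, chr4:124714611-124714860, strand +): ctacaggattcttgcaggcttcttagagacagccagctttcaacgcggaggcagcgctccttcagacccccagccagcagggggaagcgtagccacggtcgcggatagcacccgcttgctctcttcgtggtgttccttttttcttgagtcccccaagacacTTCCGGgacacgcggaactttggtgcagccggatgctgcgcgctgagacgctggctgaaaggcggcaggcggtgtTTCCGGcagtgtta
Sf3b1 (GRCm38.p6, chr1:55027479-55027728, strand -): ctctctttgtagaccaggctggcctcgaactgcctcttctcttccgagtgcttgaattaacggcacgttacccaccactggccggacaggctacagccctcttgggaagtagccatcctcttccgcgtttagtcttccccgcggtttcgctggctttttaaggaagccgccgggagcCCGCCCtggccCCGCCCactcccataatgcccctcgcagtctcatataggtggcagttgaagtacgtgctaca
Srsf2 (GRCm38.p6, chr11:116853095-116853344, strand -): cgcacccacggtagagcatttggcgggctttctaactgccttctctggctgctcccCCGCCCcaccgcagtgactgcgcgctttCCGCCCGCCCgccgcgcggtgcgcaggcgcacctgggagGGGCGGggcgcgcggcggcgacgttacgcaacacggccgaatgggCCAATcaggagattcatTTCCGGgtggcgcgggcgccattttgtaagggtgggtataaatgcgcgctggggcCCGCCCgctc

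The Srsf2 stretch held 7 matches and the others 0 to 3. Over 61 promoters of 45 of the genes, some of which overlap because a gene can have several start sites, 44.3% held the ETS letters, against 12.0% of all 32851 mouse promoters of the same length. The SP letters were in 67.2% against 32.7%, and the CCAAT letters in 49.2% against 33.8%. The NRF1 letters were in 4.92% against 3.24%, the E-box letters in 8.20% against 6.02%, and the YY1 letters in 6.56% against 2.18%. The promoters of these genes were also richer in G and C, with a median of 61.2% against 52.4%, and held a median of 21 CpG pairs against 6. In the 51 promoters of genes that fell at 3.0 Gy, the ETS letters were in 43.1%, the SP letters in 70.6% and the CCAAT letters in 47.1%. The 32851 promoters include those of genes that were not tested here. A match is only a run of letters, and these shares describe the sequences and carry no test. The part of these letters in the fall was not tested.

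Among the SR protein genes, Srsf3, a small SR protein that also helps export messenger RNA, had the smallest p for a change at any dose. Its log2 level was 8.13, 7.17, 7.73, 8.05 and 7.68 in the 5 control mice, 6.99, 7.76, 7.34 and 7.30 at 0.5 Gy, 7.38, 7.29, 7.14 and 7.55 at 1.0 Gy and 5.83, 6.10, 5.71 and 5.73 at 3.0 Gy. All 4 arrays at 3.0 Gy lay below the other 13, and the other groups overlapped. The fall at 3.0 Gy was 3.75-fold (log2 -1.91, SE 0.18, limma adjusted p = 9.64e-08). It was smaller in the gene's next brightest probe set, at log2 -1.20, and all 4 other tested probe sets were lower as well.

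Srsf11, an SR-type protein that works with other SR proteins, behaved much the same. It read 7.42, 6.59, 7.00, 7.38 and 6.82 in control mice and 5.38, 5.46, 5.13 and 5.31 at 3.0 Gy, again without overlap. Its arrays at 0.5 Gy (6.51, 7.35, 6.82 and 6.97) and at 1.0 Gy (6.92, 6.85, 6.66 and 7.02) overlapped the controls. The change at 3.0 Gy was log2 -1.72 (SE 0.17, limma adjusted p = 2.41e-07).

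Srsf5, an SR protein known for a rapid rise after growth stimuli, was the only 1 of the 49 genes called lower at all 3 doses. It read 9.27, 8.53, 8.78, 9.09 and 8.54 in control mice, 7.46, 8.71, 7.64 and 8.06 at 0.5 Gy, 7.74, 8.32, 7.63 and 8.07 at 1.0 Gy and 7.56, 7.10, 7.23 and 7.44 at 3.0 Gy. At 0.5 Gy replicate 2 lay within the control range, at 1.0 and 3.0 Gy no array did. The log2 changes were -0.87, -0.90 and -1.51 (SE 0.22 each), with limma adjusted p = 0.0140, 0.00634 and 1.37e-05. The call at 0.5 Gy was lost without 0.5 Gy replicate 1 or without 0.5 Gy replicate 3, where the adjusted p reached 0.0733.

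Srsf1, the founding SR protein, read 7.73, 6.97, 7.02, 7.45 and 6.93 in control mice and 6.02, 6.03, 5.86 and 5.67 at 3.0 Gy. Srsf9, another small SR protein, read 6.95, 6.33, 6.56, 6.97 and 6.57 and 5.66, 5.66, 5.59 and 5.37. In both genes the groups did not overlap. The log2 change at 3.0 Gy was -1.33 for Srsf1, -1.11 for Srsf9, -1.16 for Srsf6, -0.87 for Srsf4 and -0.87 for Srsf10, which acts mainly as a repressor of splicing. Their limma adjusted p ran from 8.39e-06 for Srsf1 to 0.00881 for Srsf10. The control arrays of Srsf10 spread widely (5.07 ± 0.62, SD, n = 5) and overlapped those at 3.0 Gy (4.20 ± 0.51, SD, n = 4), and its call was lost with the second probe set.

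Srsf2, also called SC35, is described here because it moved against its family, a choice made after its values were seen. It read 6.07, 6.22, 6.29, 6.88 and 6.71 in control mice, 6.93, 6.72, 7.17 and 6.98 at 0.5 Gy, 6.97, 6.82, 7.28 and 7.17 at 1.0 Gy and 7.83, 6.96, 8.60 and 8.07 at 3.0 Gy. All 3.0 Gy arrays lay above the controls, but replicate 2 at 3.0 Gy lay within the range of the lower doses. The rise at 3.0 Gy was 2.69-fold (log2 1.43, SE 0.24, limma adjusted p = 5.75e-05). The changes at 0.5 Gy (log2 0.52, adjusted p = 0.205) and 1.0 Gy (log2 0.62, adjusted p = 0.0800) did not pass limma's threshold. The probe sets of Srsf2 differed: when every probe set was fitted, 3 were higher at 3.0 Gy (log2 1.43, 1.18 and 0.35) and the remaining 1 was lower (log2 -0.82).

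**Figure D3:**
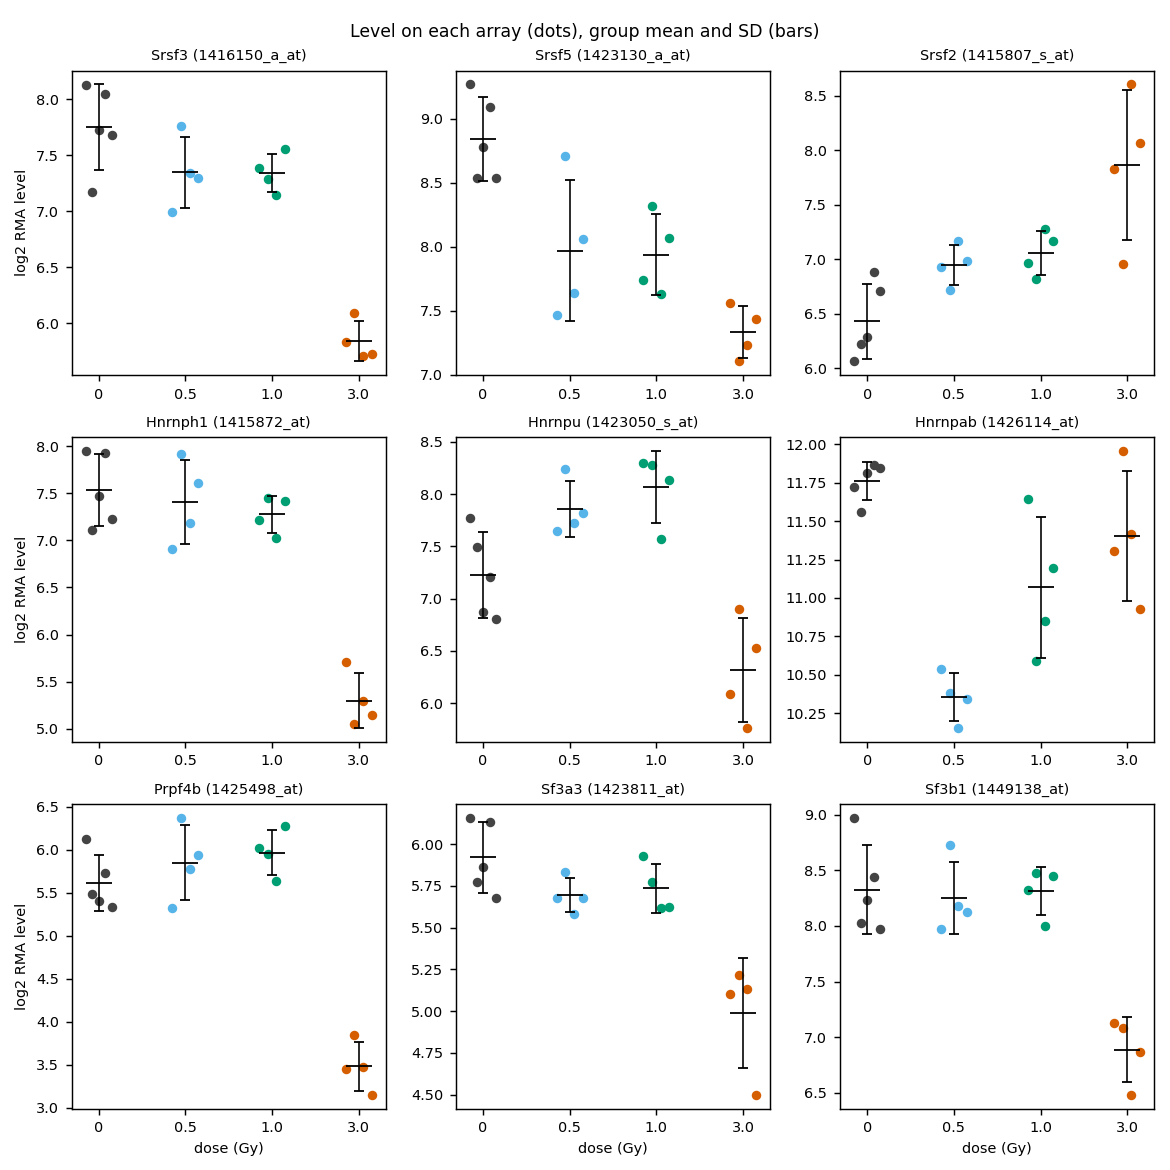
Log2 level (y axis) on every array of 9 of the genes by dose in Gy (x axis), each dot 1 mouse, with the group mean and SD as bars. Srsf3, Hnrnph1, Prpf4b, Sf3a3 and Sf3b1 are called lower at 3.0 Gy alone, though Srsf3 also changed by log2 -0.41 at both lower doses, uncalled. Srsf5 is called lower at every dose, and Srsf2 is highest at 3.0 Gy. Hnrnpu is higher at 1.0 Gy and lower at 3.0 Gy, and Hnrnpab is lowest at 0.5 Gy.

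Of the hnRNP genes, Hnrnph1, which binds runs of G in RNA, had the smallest p for a change at any dose. Its levels were 7.95, 7.11, 7.47, 7.92 and 7.23 in control mice, 6.91, 7.91, 7.19 and 7.61 at 0.5 Gy, 7.21, 7.45, 7.02 and 7.41 at 1.0 Gy and 5.70, 5.05, 5.29 and 5.14 at 3.0 Gy. The 3.0 Gy arrays were all below the other 13. The fall was 4.72-fold (log2 -2.24, SE 0.21, limma adjusted p = 1.04e-07).

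Hnrnpr, a relative of the RNA-binding protein Syncrip, read 7.16, 6.41, 6.72, 6.89 and 6.18 in control mice and 4.03, 5.02, 4.31 and 4.30 at 3.0 Gy, and the groups did not overlap. It changed by log2 -2.26 (SE 0.23, limma adjusted p = 2.92e-07), and its second probe set by -2.26. Its probe set 1452030_a_at changed by -0.62, and its only tested probe set of the plain type, 1438807_at, by -0.14 with adjusted p = 0.520, so that the call was lost when only plain probe sets were used. Hnrnpm, a regulator of alternative exons, read 6.60, 6.05, 5.92, 6.19 and 5.81 in control mice and 4.76, 4.62, 4.42 and 4.50 at 3.0 Gy. It changed by log2 -1.54 (SE 0.17, limma adjusted p = 6.55e-07), without overlap.

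A further 7 hnRNP genes fell by over 2-fold. Hnrnpa2b1, a close relative of Hnrnpa1, read 8.33, 7.45, 7.56, 7.92 and 7.42 in control mice and 5.84, 6.58, 5.49 and 5.65 at 3.0 Gy, and Hnrnpdl read 10.20, 9.56, 9.65, 10.01 and 9.41 and 8.15, 8.23, 7.80 and 8.02. The groups did not overlap in either gene. The log2 change at 3.0 Gy was -1.84 for Hnrnpa2b1, -1.76 for Hnrnpd (AUF1, which binds AU-rich messenger RNAs), -1.76 for Hnrnpa0 and -1.72 for Hnrnpdl. It was -1.32 for Hnrnpf, -1.30 for Hnrnpa1, a well-studied antagonist of SR proteins, and -1.24 for Hnrnpk, which binds C-rich RNA. For these 7 genes the limma adjusted p was at most 4.44e-05, and every 3.0 Gy array lay below every control array. The call of Hnrnpa1 was lost when only plain probe sets were used. Smaller falls were called for Hnrnpul2 (log2 -0.76), Hnrnph2 (-0.68), Hnrnph3 (-0.65), Hnrnpl (-0.65) and Hnrnpul1 (-0.57). The call of Hnrnph3 was lost without control replicate 4 or without 3.0 Gy replicate 4, with an adjusted p of up to 0.0688.

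Hnrnpu, a nuclear matrix protein also called SAF-A, was the only 1 of the 49 called in opposite directions. It read 7.77, 7.49, 6.87, 7.20 and 6.80 in control mice, 7.64, 8.24, 7.72 and 7.82 at 0.5 Gy, 8.30, 8.27, 7.57 and 8.13 at 1.0 Gy and 6.09, 6.90, 5.76 and 6.53 at 3.0 Gy. At 1.0 Gy 3 of 4 arrays lay above all controls, and at 3.0 Gy 3 of 4 lay below all controls. The log2 change was 0.84 at 1.0 Gy (limma adjusted p = 0.0150) and -0.91 at 3.0 Gy (adjusted p = 0.00304), with an SE of 0.23. The call at 1.0 Gy was lost without 1.0 Gy replicate 1 (adjusted p = 0.0555), under other choices of probe set and when the level of 18S RNA was added. At 0.5 Gy the change was 0.63 and did not pass.

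Hnrnpab, a shuttling hnRNP found in transcription and messenger RNA transport, had a pattern of its own and was picked for display after its values were seen. Its brightest probe set, 1426114_at, read 11.72, 11.56, 11.81, 11.87 and 11.84 in control mice, 10.54, 10.38, 10.15 and 10.34 at 0.5 Gy, 11.64, 10.59, 10.85 and 11.20 at 1.0 Gy and 11.31, 11.95, 11.42 and 10.93 at 3.0 Gy. All 0.5 Gy arrays lay below every other array, while 1.0 and 3.0 Gy overlapped the controls. The log2 changes were -1.41 (limma adjusted p = 7.05e-05), -0.69 (0.0159) and -0.36 (0.127). The call at 1.0 Gy was lost without 1.0 Gy replicate 2 (adjusted p = 0.0727), with the mean of all probe sets, with the second probe set, with quantile normalization repeated and when the level of 18S RNA was added. That at 0.5 Gy was lost with the mean of all probe sets (log2 -0.31), with the second probe set (-0.36) and when the level of 18S RNA was added.

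The other 4 tested probe sets of Hnrnpab read differently when every probe set was fitted. At 3.0 Gy they changed by log2 -2.04, -1.90, -1.52 and -1.73, with a limma adjusted p of at most 2.28e-06. At 0.5 Gy they changed by -0.36, -0.26, -0.20 and -0.16, and none passed. So 1426114_at was lowest at 0.5 Gy, and the 4 others passed at 3.0 Gy. The difference between probe sets was not tested.

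In the Prpf family, Prpf4b, a kinase that acts on spliceosomal proteins, had the smallest p for a change at any dose of all 49 genes. It read 6.13, 5.48, 5.40, 5.72 and 5.33 in control mice, 5.33, 6.37, 5.77 and 5.94 at 0.5 Gy, 6.01, 5.95, 5.63 and 6.27 at 1.0 Gy and 3.45, 3.85, 3.47 and 3.15 at 3.0 Gy. The 3.0 Gy arrays stood apart below the other 13. The fall from control was 4.39-fold (log2 -2.13, SE 0.20, limma adjusted p = 1.10e-07). All 4 of its other tested probe sets were also lower, by log2 -2.40, -0.43, -1.27 and -0.68.

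Prpf19, a ubiquitin ligase that joins the spliceosome at its activation, read 7.01, 6.38, 6.34, 6.48 and 6.03 in control mice and 4.17, 5.17, 4.00 and 3.93 at 3.0 Gy, again without overlap. The log2 change was -2.14 (SE 0.26, limma adjusted p = 1.59e-06). That probe set is of the _x_at type, whose probes may bind other transcripts, and the gene's 3 other tested probe sets changed by -0.06, -0.03 and -0.33, none of which passed. The fall of Prpf19 thus rests on that probe set.

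The other called Prpf genes had smaller changes. Prpf18 read 6.14, 5.60, 5.77, 6.18 and 5.67 in control mice and 4.93, 4.96, 4.71 and 4.97 at 3.0 Gy, without overlap. Log2 changes at 3.0 Gy were -1.08 for Prpf39, a helper of the U1 particle, -0.98 for Prpf18, which acts at the joining of exons, and -0.85 for Prpf8, the large protein at the catalytic centre. They were -0.59 for Prpf38b, -0.52 for Prpf38a, -0.51 for Prpf6, a bridge of the U4/U6.U5 particle, and -0.48 for Prpf4, a U4/U6 protein. Adjusted p by limma ran from 2.54e-05 for Prpf18 to 0.0103 for Prpf8. The call of Prpf8 was lost without 3.0 Gy replicate 4 (adjusted p = 0.0516), and its arrays overlapped (5.79 ± 0.45 in control mice and 4.94 ± 0.57 at 3.0 Gy, SD, n = 5 and 4). The calls of Prpf38b and Prpf4 were lost with quantile normalization repeated, and that of Prpf4 also with its second probe set.

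Sf3a3 is the Sf3a subunit with the smallest p for a change at any dose. It read 6.16, 5.78, 5.86, 6.13 and 5.68 in control mice, 5.68, 5.83, 5.58 and 5.68 at 0.5 Gy, 5.93, 5.77, 5.62 and 5.62 at 1.0 Gy and 5.10, 5.22, 5.14 and 4.50 at 3.0 Gy. Every 3.0 Gy array was below the other 13. It changed by log2 -0.93 (SE 0.14, limma adjusted p = 2.24e-05). The change of Sf3a1, the largest subunit of that complex, was -0.38 with adjusted p = 0.0379. That call was lost without control replicate 1, control replicate 4, 3.0 Gy replicate 1 or 3.0 Gy replicate 3 (adjusted p up to 0.186), with the mean of all probe sets, with quantile normalization repeated, with equal medians and with only the groups compared, and the second probe set gave 0.084.

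Sf3b1, the large branch-point scaffold known for mutations in human blood cancers, read 8.97, 8.02, 8.23, 8.44 and 7.98 in control mice, 7.98, 8.72, 8.18 and 8.13 at 0.5 Gy, 8.33, 8.47, 8.00 and 8.45 at 1.0 Gy and 7.12, 7.08, 6.48 and 6.87 at 3.0 Gy. The 3.0 Gy arrays did not overlap any other group. The fall was 2.71-fold (log2 -1.44, SE 0.20, limma adjusted p = 6.75e-06).

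Sf3b5, a small subunit of the complex, read 7.48, 7.02, 7.36, 7.90 and 7.33 in control mice, 6.61, 7.11, 6.85 and 6.90 at 0.5 Gy, 7.10, 6.93, 6.48 and 6.79 at 1.0 Gy and 6.50, 6.50, 5.84 and 6.51 at 3.0 Gy. Its 3.0 Gy arrays were below all controls but overlapped those at 1.0 Gy, which overlapped the controls. Log2 changes were -0.59 at 1.0 Gy (limma adjusted p = 0.0244) and -1.08 at 3.0 Gy (5.07e-05). The call at 1.0 Gy was lost without control replicate 4, 1.0 Gy replicate 3 or 1.0 Gy replicate 4 (adjusted p up to 0.0825), with the second probe set and when the level of 18S RNA was added. Sf3b6, which contacts the branch point, changed by -0.64 at 1.0 Gy (0.0189) and -0.87 at 3.0 Gy (0.000625). Its call at 1.0 Gy was lost without control replicate 4 or 1.0 Gy replicate 1 (adjusted p up to 0.0545).

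The 3 remaining Sf3b genes fell at 3.0 Gy too. Sf3b4, which touches RNA upstream of the branch point, read 7.58, 7.40, 7.25, 7.55 and 7.17 in control mice and 6.66, 6.87, 6.56 and 6.65 at 3.0 Gy, and Sf3b3 read 7.79, 7.19, 6.77, 7.09 and 6.53 and 5.94, 6.34, 5.70 and 5.74. Neither gene's groups overlapped. Log2 changes were -1.14 for Sf3b3, -0.75 for Sf3b2 and -0.71 for Sf3b4, with limma adjusted p of at most 0.00463. The second tested probe set of Sf3b4 gave 0.011, and 1 of the 6 tested probe sets of Sf3b2, 1453123_at, was higher by log2 0.46.

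At 3.0 Gy 7 genes passed in neither direction. Their log2 changes were -0.05 for Hnrnpc, which packages nascent transcripts, -0.22 for Hnrnpll, known for switching Cd45 exons in lymphocytes, -0.36 for Hnrnpab, -0.41 for Prpf31 and -0.28 for Prpf3, U4/U6 proteins known from inherited retinal degeneration, 0.13 for Prpf40b and -0.32 for Sf3a2. The adjusted p by limma was lowest for Sf3a2 (0.0556) and highest for Hnrnpc (0.724). Hnrnpc was the brightest of these 7 after Hnrnpab. The arrays of Hnrnpc at 3.0 Gy (9.05, 8.90, 9.02 and 9.28) lay inside the control range but for 1 (9.29, 8.93, 9.01, 9.38 and 8.97). A change that misses the threshold is not shown to be absent.

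Set against 1.0 Gy, 39 of the 49 genes were lower at 3.0 Gy and 1, Srsf2, was higher (22.7% and 15.9% of all genes tested). With the level of 18S RNA as a covariate all of these calls were lost. In that fit 18S and dose can hardly be told apart. The 18S level ran from 12.89 to 13.52 at 1.0 Gy and from 10.50 to 10.84 at 3.0 Gy. The comparisons with control and with 1.0 Gy share the 3.0 Gy arrays. Lower against both were 37 genes (20% of all genes tested), and of the 41 that fell from control Hnrnph3, Prpf38a, Sf3b6 and Srsf10 were not called against 1.0 Gy. The falls were steepest for Prpf4b (log2 -2.49), Prpf19 (-2.31) and Hnrnpa2b1 (-2.20). The rise of Srsf2 over 1.0 Gy (log2 0.81, limma adjusted p = 0.0173) was also lost without 1.0 Gy replicate 2 or 3.0 Gy replicate 3 (adjusted p up to 0.0717) and under other choices of probe set. The calls of Hnrnpc, Hnrnpl, Prpf4, Sf3b5 and Srsf5 against 1.0 Gy were each lost on leaving out any 1 of 5 to 11 arrays, with an adjusted p of up to 0.172.

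Between 1.0 and 0.5 Gy limma called 0 of the 49 genes (0% of all genes tested higher and 0.0158% lower). Without adjustment 1 of the 49 had p under 0.05, as did 735 of all 12696 genes tested. Limma with a trended, robust spread also called 0 of the 49. The largest difference was that of Hnrnpab, log2 0.71 (adjusted p = 0.321). Over the 4 groups, the 3.0 Gy mean was the lowest in 46 of the 49 genes, or 93.9%, against 36.6% of all genes tested. The means of 14 genes fell at each step of dose, Srsf3, Srsf4, Srsf5, Srsf11, Hnrnpdl, Hnrnph1, Hnrnph3, Hnrnpl, Prpf18, Prpf31, Prpf38a, Prpf39, Sf3b5 and Sf3b6, as did 11.2% of all genes tested. By an F test for a change at any dose, 44 of the 49 genes passed (48.2% of all genes tested). Of the 49, 37 genes were called at 3.0 Gy alone and lower there. That pattern was not counted over all genes tested, of which 29.2% were lower at 3.0 Gy, whatever their calls at other doses.

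Control probe sets for 18S ribosomal RNA differed between groups in another order than the dose. Their mean log2 level was 10.52 in control mice, 12.69 at 0.5 Gy, 13.28 at 1.0 Gy and 10.68 at 3.0 Gy. With that level as a covariate the counts against control at 3.0 Gy were as before, 41 lower and 1 higher, but between 3.0 and 1.0 Gy 0 of all genes tested passed limma's threshold. Without adjustment 1516 of all genes and 17 of the 49 had p under 0.05 there, and with a trended, robust spread 0 genes passed. The 18S level ran from 9.82 to 11.18 in control mice, from 11.76 to 13.43 at 0.5 Gy and from 12.89 to 13.52 at 1.0 Gy. At 3.0 Gy it ran from 10.50 to 10.84, within the control range. The 18S ranges overlap between 3.0 Gy and control and between 1.0 and 0.5 Gy. They do not overlap between control and 0.5 or 1.0 Gy, or between 3.0 and 1.0 Gy. In those comparisons a call lost with 18S in the fit does not show whether it rests on 18S or on dose. The part of 18S in the differences between doses was not tested. The median level of the genes tested also lay 0.139 lower at 3.0 Gy than in control mice (exact permutation p = 0.00794, two-sided, the smallest that 126 regroupings allow). Shifting the arrays to equal medians lessens every fall at 3.0 Gy by this amount and left 40 of the 49 genes lower and 1 higher. It turned the split over all genes, from 40.6% to 59.2% of calls being higher, and repeating the quantile normalization gave 52.5% and 38 lower genes. Against 1.0 Gy the share of higher calls went from 41.1% to 61.2% and 58.6% under the same settings, with 34 of the 49 genes lower under each.

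The array holds 153 probe sets of these 50 genes, of which 123 passed the brightness filter when every probe set was fitted. At 3.0 Gy 96 of the 123 were lower and 4 higher, where 27.6% of all 24366 probe sets tested were lower and 19.1% higher. Of the 41 genes that fell, 26 had another tested probe set: in 21 at least 1 of these was also lower, and in 17 all were. No other probe set was lower for Prpf19, Prpf4, Sf3a1, Sf3b4 and Srsf10. With the mean of all a gene's probe sets in place of the brightest, several falls shrank by over 1.5 times on the log2 scale but were still called: Hnrnph1 to -1.46, Srsf3 to -1.22, Prpf4b to -1.16, Hnrnpr to -1.04, Srsf11 to -0.88, Hnrnpd to -0.60 and Prpf19 to -0.48. The rise of Srsf2 shrank to 0.53. Read by plain probe sets only, Srsf3 changed by -0.35 and was still called. Of the 49 genes, 17 were read by probe sets of the _x_at, _s_at or _a_at types, the first 2 of which can bind several related transcripts, and 13 of these fell, as did 28 of the 32 genes read by plain probe sets. The probe set plot shows the genes whose probe sets differ most beside some that agree.

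**Figure D4:**
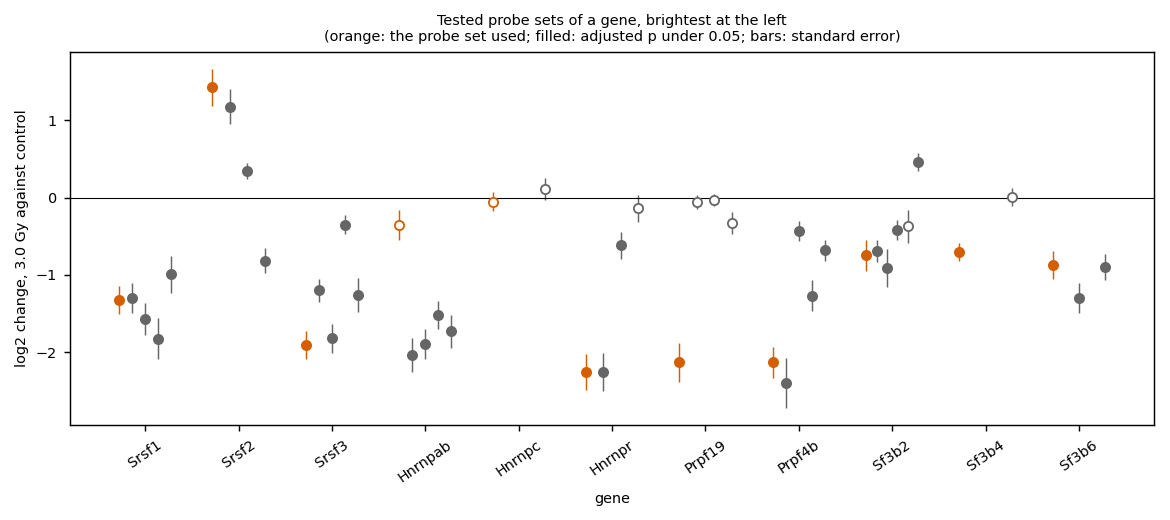
Log2 change at 3.0 Gy against control (y axis) of every tested probe set of 11 genes (x axis), brightest at the left, with standard errors as bars, orange for the probe set used and filled symbols for an adjusted p under 0.05. Srsf1, Srsf3 and Prpf4b are lower in all probe sets, Srsf2 and Sf3b2 have probe sets on both sides of 0, the 4 other probe sets of Hnrnpab lie far below the one used, and only the probe set used is lower for Prpf19.

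Other genes of the splicing machinery, taken from a list of 111, fell as well. Of these 99 are on the array under 1 symbol and 96 were tested. The list was drawn up with earlier results of these data known. At 3.0 Gy 75 of the 96 were lower and 7 higher (29.2% and 20% of all genes tested), with a median log2 change of -0.88. At 1.0 Gy 16 of the 96 were lower and 5 higher (8.49% and 8.8% of all genes tested), and at 0.5 Gy 9 were lower and 3 higher (5% and 5.24%). At 3.0 Gy all 8 SR-related proteins fell, as did 14 of 16 U1, U2 and Sm proteins, 12 of 13 Prp19 complex and catalytic-step proteins, 10 of 13 U4/U6.U5 and Lsm proteins (1 rose) and 6 of 8 spliceosomal helicases. Of the kinases and importers of SR proteins 6 of 8 fell and 1 rose, of exon junction proteins 3 of 5 fell and 1 rose, and of other splicing regulators 16 of 25 fell and 4 rose. The falls with the smallest p at 3.0 Gy were those of Bcas2, a Prp19 complex protein (log2 -1.93), Snrpd3 and Snrpf, proteins of the Sm ring (-2.15 and -1.35), and Dhx15, the helicase that takes spent spliceosomes apart (-2.07).

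Of the 16 U1, U2 and Sm genes 6 also fell at 0.5 Gy and 7 at 1.0 Gy, where 5% and 8.49% of all genes tested were lower. At 0.5 and 1.0 Gy the log2 changes were -0.97 and -1.34 for Snrpe, -0.90 and -1.38 for Snrpg, -0.64 and -0.90 for Snrpf and -0.63 and -0.99 for Bcas2, with limma adjusted p of at most 0.0120. The 3 regulators of alternative splicing Mbnl2, Mbnl1 and Celf2 rose at every dose, Mbnl2 by log2 1.54, 1.84 and 1.80, Mbnl1 by 0.85, 1.28 and 1.15, and Celf2 by 0.66, 1.06 and 0.81 at 0.5, 1.0 and 3.0 Gy. Elavl1, which stabilises AU-rich messenger RNAs, was higher at 1.0 Gy (0.66) and at 3.0 Gy (0.39), and Eif4a3, the exon junction helicase, at 3.0 Gy (0.44).

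Most lymphocyte markers were lower at 3.0 Gy too. At 3.0 Gy 6 of 7 B cell markers and 5 of 7 T cell markers were lower (29.2% of all genes tested), with median log2 changes of -2.56 and -2.04. Pax5, Cd4 and Cd8a did not pass. The log2 of the summed level of the B cell list ran from 11.01 to 11.81 in control mice and from 7.90 to 9.67 at 3.0 Gy, and that of the T cell list from 10.21 to 11.13 and from 8.96 to 9.23. Of the defining B cell genes, Ebf1 read 3.45 at 3.0 Gy, below the median of all probe sets on those arrays (3.54 to 3.57), and Cd79a 5.31. At 0.5 and 1.0 Gy 1 B cell marker was lower at each dose, and 2 and 3 T cell markers were (5% and 8.49% of all genes tested).

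Averaged over the 14 B and T cell markers, the level was 7.62 ± 0.28 in control mice (SD, n = 5), 7.18 ± 0.22 at 0.5 Gy, 7.15 ± 0.21 at 1.0 Gy and 5.62 ± 0.36 at 3.0 Gy (SD, n = 4 each). The mean of the 49 splicing genes was 6.72 ± 0.25, 6.63 ± 0.25, 6.68 ± 0.18 and 5.73 ± 0.09 in the same order. In both, every 3.0 Gy array lay below the other 13. Of the other lists, 11 of 11 platelet and megakaryocyte markers were higher at each dose, where 5.24%, 8.8% and 20% of all genes tested were higher at 0.5, 1.0 and 3.0 Gy. At 3.0 Gy, with 20% of all genes tested higher and 29.2% lower, 4 of 5 mature neutrophil markers were higher, 2 of 4 monocyte and 1 of 5 NK cell markers were lower, the immature granulocyte genes Elane and Prtn3 changed by log2 0.26 and 0.43 and did not pass, 2 of 5 genes of dividing cells were higher and 2 lower, and 2 of 7 red cell and reticulocyte genes were higher and 4 lower. The part of these cell types in the fall of the splicing genes was not tested.

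**Figure D5:**
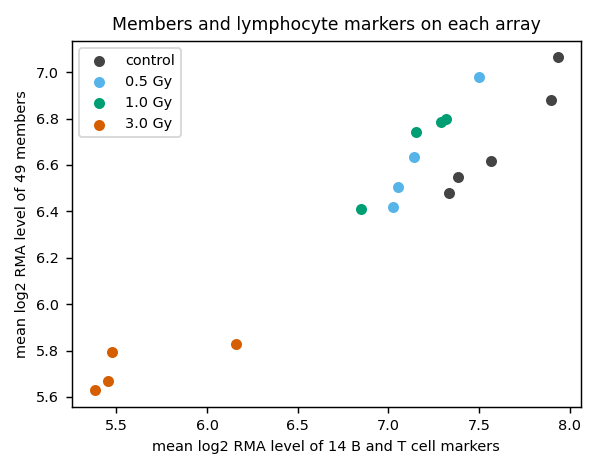
Mean log2 level of the 49 splicing factor and hnRNP genes (y axis) against that of 14 B and T cell markers (x axis), each dot 1 array, coloured by dose. The 3.0 Gy arrays lie at the lower left, between 5.63 and 5.83 for the splicing genes, and the other 13 arrays between 6.41 and 7.06.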

How the data were processed

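Whole blood RNA of 17 mice was measured on 1 Affymetrix array each, from 200 ng of RNA per the labels' protocols. The authors deposited log2 values, and the submitters' processing notes name RMA and R 3.3.2. RMA corrects background, makes the arrays' distributions alike and pulls dim probe sets together, so shifts of most genes are partly removed and folds of dim genes understated. The RMA software is not given in the sources used here.

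Symbols came from the platform annotation. A gene was tested when its brightest probe set lay above its array's 50th percentile in at least 4 arrays. The log2 values were fitted with limma 3.58.1 in R 4.3.3 (lmFit, eBayes, 4 group means over 17 arrays), two-sided, with Benjamini-Hochberg adjustment over 12696 genes and a threshold of 0.05. The fit was tested on simulated data for 3.0 Gy against control, with 200 changed genes among 12696 and independent noise for each gene. It recovered 37% of changes of 0.5 log2 and 92% of changes of 1 log2, and called 12 unchanged genes. In the data far more genes were called and genes vary together, so these shares need not hold there. The number of mice limits the precision. Arrays correlated at a median r of 0.987 within groups and 0.971 between groups.

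The genes and the lists of other splicing genes and cell markers were chosen with earlier results of these data known. Levels on every array are given for genes with the smallest F test p of each subfamily, up to 5, and for those called in opposite directions. Srsf2, Hnrnpab and Hnrnpc were added after their values were seen, as were single probe sets. Of the other splicing list, up to 4 genes a dose and direction are named. Promoters are from RefSeq, GRCm38.p6. Alternatives covered the choice of probe set, the filter, the scaling, the samples in the fit, a trended robust fit, the replicate number as a block, the 18S level and leaving out each array.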

Additional observations from a re-analysis of the deposited data

Results flagged for a closer look

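In 196 groups of values, made of 49 genes at 4 doses, 13 values on 6 arrays stood apart from the rest of their group by Dixon's test for 1 outlying value. Chance alone gives about 1 in 20 groups, or 5%. At 0.5 Gy replicate 2 was the highest of its group for Hnrnpa0 (6.13 against 5.32 to 5.42), Hnrnpc (9.56 against 9.24 to 9.29), Hnrnpdl (10.02 against 9.22 to 9.31), Sf3a1 (5.85 against 5.49 to 5.55) and Srsf10 (4.87 against 4.43 to 4.44). At 0.5 Gy replicate 3 was the lowest for Prpf4 (5.41 against 5.54 to 5.56). At 1.0 Gy replicate 3 was the lowest for Hnrnpa2b1 (7.65 against 8.22 to 8.25), Hnrnpl (6.22 against 6.64 to 6.70) and Hnrnpm (5.93 against 6.44 to 6.48).

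At 3.0 Gy replicate 3 was the lowest for Prpf18 (4.71 against 4.93 to 4.97) and Sf3b5 (5.84 against 6.50 to 6.51), and replicate 4 was the lowest for Sf3a3 (4.50 against 5.10 to 5.22). Control replicate 2 was the lowest for Srsf10 (4.01 against 5.14 to 5.52). Of the 13, 5 fell on 0.5 Gy replicate 2 and 3 on 1.0 Gy replicate 3. All are log2 levels.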

How the results depend on the processing

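At 3.0 Gy against control, 39 to 42 of the 49 genes were lower and 1 higher when each array was left out in turn. Over all genes tested 26.4% to 29.7% were lower and 16.1% to 20.7% higher in these fits. The other alternatives gave 32 to 42 lower and 1 higher. With them 21.0% to 39.0% of all genes tested were lower and 17.4% to 35.4% higher. The count was lowest with the probe set of the second highest mean. There 43 genes could be tested, and 26.7% of all genes tested were lower. Without _x_at, _s_at and _a_at probe sets 35 of 45 tested genes were lower, as were 27.4% of all genes tested.

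Counts at the lower doses moved more. At 0.5 Gy the lower calls went from 2 to 1 with the mean of all probe sets (5.74% of all genes tested lower). They also went to 1 without _x_at, _s_at and _a_at probe sets (3.85%). They went to 6 with quantile normalization repeated (5.99%), which also gave 1 higher (5.84%). At 1.0 Gy the higher calls went from 1 to 0 with the mean of all probe sets (9.29% of all genes tested higher). The second probe set (8.39%) and the 18S level in the fit (2.24%) gave 0 as well. With only the groups compared there were 2 (8.25%). Leaving out 1 array gave 0 to 1 higher and 1 to 8 lower at 0.5 Gy. The 8 came without control replicate 2 (7.31% of all genes tested lower) and 5 without 0.5 Gy replicate 2 (6.2%). Without 0.5 Gy replicate 1 or 3 there was 1 (2.16% and 2.24%). For 1.0 Gy, leaving out 1 array gave 0 to 3 higher and 2 to 6 lower. The 0 higher came without 1.0 Gy replicate 1 (7.1% of all genes tested higher). The 3 higher came without control replicate 1 (8.92%) or 1.0 Gy replicate 3 (9.74%). The 2 lower came without control replicate 4 (6.29% of all genes tested lower) and the 6 without control replicate 2 (9.96%). Between 3.0 and 1.0 Gy the higher calls went from 1 to 0 with the mean of all probe sets (18.4% of all genes tested). The second probe set (15.2%), leaving out _x_at, _s_at and _a_at probe sets (15.6%) and the 18S level (0%) gave 0 as well. Equal medians gave 2 (30.4%). The lower calls went from 39 to 0 with the 18S level, which can hardly be told apart from dose there (0% of all genes tested). Leaving out 1 array gave 0 to 2 higher and 34 to 40 lower there. Over all genes tested 9.45% to 19.9% were higher and 18.6% to 25.4% lower in these fits. By the F test 40 to 44 genes passed on leaving out 1 array, and 32 to 44 under the other alternatives. With every array in, 48.2% of all genes tested passed. That share is not given here for the other fits. Between 1.0 and 0.5 Gy leaving out 1 array gave 0 in both directions.

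Single genes turned sign in these cases. With the mean of all probe sets Hnrnpab changed by -0.87 between 3.0 and 1.0 Gy, and with its second probe set by -1.81. With the second probe set Sf3a1 changed by 0.084 at 3.0 Gy and by 0.084 against 1.0 Gy, Sf3b4 by 0.011 at 3.0 Gy and Sf3a2 by 0.052 against 1.0 Gy. With the 18S level in the fit Srsf5 changed by 0.40 between 3.0 and 1.0 Gy. Causes other than the choice of probe set or covariate itself were not tested.

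The same replicate numbers occur in all groups, but nothing in the labels pairs the mice, and of 24 same-numbered pairs 11 had correlated deviations over 0.1, with a range of -0.45 to 0.49. These were 5 of 6 pairs of replicate 3, 3 of 6 of replicate 2, 2 of 6 of replicate 4 and 1 of 6 of replicate 1, and since not every pair was over 0.1 the numbers were not taken as a pairing. With the replicate number as a block, 0 genes were higher and 2 lower at 0.5 Gy (5.34% and 4.17% of all genes tested). At 1.0 Gy 2 were higher and 4 lower (8.55% and 7.46%), and at 3.0 Gy 1 higher and 42 lower (20.2% and 29.8%). Between 3.0 and 1.0 Gy 1 was higher and 39 lower (16.1% and 23.5%). Fitting every probe set at once, and the trended, robust spread with the 18S level, were chosen after the data were seen. The first gave 41 lower and 1 higher at 3.0 Gy (28.9% and 19.6% of all genes tested). How far each probe set stood above background was not analysed here.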

Other observations

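For the gene of each subfamily with the smallest p for a change at any dose, the 3 genes outside the splicing genes with the most similar levels over the 17 arrays were looked up by Pearson correlation, as a description. They were Bccip, Usp1 and Dnajc9 for Srsf3 (r of 0.987, 0.987 and 0.986), and Ivns1abp, Nupl1 and Slbp for Hnrnph1 (0.991, 0.982 and 0.981). For Prpf4b they were Dock10, Arap2 and Otud4 (0.988, 0.984 and 0.982), and for Sf3a3 Bub3, Mcm7 and Acp5 (0.973, 0.967 and 0.967). For Sf3b1 they were Ikzf1, Fbxo11 and Gabpa (0.987, 0.985 and 0.983). All points share the 3.0 Gy arrays, on which these genes are lowest.

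Among the 1176 pairs of the 49 genes, the median r over the 17 arrays was 0.742, with a range of -0.876 to 0.985. Within subfamilies the median over 291 pairs was 0.739.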
